A study of Mus musculus with 51 samples.

Results

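Ahsg, Fetub, Hrg, Kng1 and Kng2 encode plasma proteins of the cystatin superfamily that hepatocytes make and secrete, and they are described here by their rows in the deposited expression matrix. All 5 were found by symbol among the 33773 genes of that matrix, and all 5 passed the filter on low values in hepatocytes and in liver. Ahsg encodes fetuin-A, a carrier of calcium phosphate that keeps mineral from precipitating in blood and also binds the insulin receptor. Fetub encodes fetuin-B, an inhibitor of the egg coat protease ovastacin. Hrg encodes histidine-rich glycoprotein, an adaptor that binds heparin, plasminogen, fibrinogen and immune complexes. Kng1 and Kng2 encode kininogens, from which plasma and tissue kallikreins release bradykinin and which also act as cysteine protease inhibitors. In mouse the kininogen gene is duplicated, so the pair is closely similar in sequence, and how the authors' counting divided shared reads between them is not given in the sources used here. The split between Kng1 and Kng2 is therefore uncertain, and their sum is given as well.

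The series asks what adult hepatocytes express without the FoxA transcription factors, which open chromatin at liver genes, and it also holds liver labelled as null for HNF4a, a nuclear receptor of hepatocytes. RNA was sequenced in 15 hepatocyte libraries of 4 groups and in 6 liver libraries. The FoxA triple null group (n = 4) comes from mice with floxed Foxa1 and Foxa2 on a FoxA3-/- background that received, at 8 weeks of age, AAV8 with Cre recombinase driven by the hepatocyte-specific Tbg promoter. The design text states that its controls carried the same alleles and received AAV with GFP. The FoxA3 null group (n = 4) was taken to be those controls, so that both groups lack FoxA3 and differ in the deletion of Foxa1 and Foxa2. The FoxA1/A2 lox group (n = 3) has no deletion by its label, and the FoxA1/A2 Cre alfp group (n = 4) has the Foxa1 and Foxa2 deletion with FoxA3 present. What alfp stands for, and the ages of these groups, are not given in the sources used here. The liver groups are HNF4a control (n = 2) and HNF4a null (n = 4), by its label depleted in the adult, and their libraries are named by the barcode in the matrix. The labels do not say that the libraries of a group come from separate animals, so the p-values measure the spread between these libraries.

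Levels are RPKM, read numbers scaled for gene length and sequencing depth, as deposited by the authors, so levels of different genes can be compared per length. Differences are on the log2(RPKM + 1) scale with their standard error (SE), and p-values come from limma, adjusted by the Benjamini-Hochberg method over all 11500 genes tested in hepatocytes or all 12434 in liver. A gene is said to rise or fall where the adjusted p was under 0.05, and is called where the log2 difference was also at least 1 in size. The read number per library is unknown, but low values gave relative depths from 1 to 4.06 across libraries, with the liver libraries the shallowest. Summed over all genes, RPKM per library ran from 726455 to 873268 in FoxA3 null and from 877225 to 921947 in the triple null. The sums ran from 1041571 to 1209674 in lox and from 1077737 to 1328383 in Cre alfp. Libraries were not rescaled in the main fits, and the part of these sums in the differences was not tested. Foxa1 averaged 3.28 RPKM for the triple null and 8.5 for FoxA3 null, Foxa2 averaged 0.366 and 13.7, and every library of both groups had Foxa3 at or under 0.0114 RPKM. Hnf4a was at 118.2 and 125.8 RPKM for HNF4a control and between 487.4 and 545.2 for the libraries labelled HNF4a null, so its RNA was higher under the null label. The RPKM of a whole gene does not show whether working protein is made, so it cannot decide the label. Any direction in liver thus rests on a label that was not tested here.

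The hepatocyte identity of the libraries was checked on 7 measured marker genes, whose summed RPKM per library ran from 20545.2 to 28209.5 for the triple null, against 37658.9 to 45947.2 for FoxA3 null, from 38125.4 to 42078.8 for lox and from 36643.0 to 45689.9 for Cre alfp. Of these 7 markers, 1 rose and 5 fell in the triple null against FoxA3 null, where 29.7% of all genes passed. The liver sums were 24024.2 and 24188.8 for the HNF4a control pair, and 10292.1 to 11604.7 for those labelled HNF4a null, where 2 of the 7 rose and 4 fell beside 52.8% of all genes passing. None of these markers was listed at 0 in any group. Markers of sinusoidal endothelium summed to between 8.16 and 16.9 RPKM in triple null libraries, against 31.0 to 47.8 in the FoxA3 null ones, and 4 of the 7 tested fell. Stellate and fibroblast markers summed to 6.33 to 22.8 and 24.5 to 33.7, with 2 of 3 tested lower. Neutrophil markers summed to between 9.04 and 110.0 against 0.702 to 1.65, with both tested members higher and the defining marker Ly6g at 0 in every library. Erythroid markers summed to 4.51 to 18.1 against 33.0 to 46.4, although 2 of the 3 tested rose and 1 fell. The erythroid sum was 80.7 to 90.3 in lox, above the 11.6 to 25.9 of Cre alfp and above both other groups, with 1 of 3 lower in Cre alfp against lox and in FoxA3 null against lox. Platelet and megakaryocyte markers summed to 4.03 to 5.19 in lox and 6.4 to 10.1 in Cre alfp, and the 1 tested did not pass. In liver, cholangiocyte markers summed to 14.8 and 15.0 RPKM for HNF4a control, against 124.9 to 222.5 for the other liver group, with 5 of 5 tested higher. Sinusoidal endothelium markers there summed to between 143.4 and 167.6 against 198.4 to 214.5, and 3 of 8 rose, where 52.8% of all genes passed in either direction. Other sums without overlap in liver were those of neutrophil markers (0.619 to 1.75 against 2.94 to 14.1, both tested members higher, Ly6g at 0), stellate and fibroblast markers (98.3 to 112.1 against 121.7 to 141.8, 3 of 7 higher) and Kupffer cell and macrophage markers (57.3 to 63.4 against 69.9 to 82.2, 1 of 5 higher). The part of these shifts in the results below was not tested, and in bulk libraries fewer cells of a type and less RNA per cell cannot be told apart.

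Ahsg stood at the top of the family in all 6 groups. Its mean was highest in FoxA3 null, at 5195.5 ± 581.6 RPKM (SD, n = 4), followed by Cre alfp (4157.8 ± 396.4, n = 4), lox (3654.3 ± 178.4, n = 3), the libraries labelled HNF4a null (3648.0 ± 846.6, n = 4), the triple null (2705.1 ± 382.4, n = 4) and HNF4a control (2236.7 ± 49.3, n = 2). Among all 33773 genes these means ranked between 21 and 41 from the top. Each neighbouring pair in this order overlapped between libraries, except the triple null and HNF4a control. Fetub was lower, and its order was Cre alfp (772.3 ± 100.3), lox (705.5 ± 13.6), FoxA3 null (644.5 ± 105.1), the triple null (367.5 ± 29.8), the libraries labelled HNF4a null (201.7 ± 12.7) and HNF4a control (144.4 ± 3.18). The first 3 of these groups overlapped, and each later step separated the libraries. The liver groups and the hepatocyte groups differ in tissue, so steps between them are levels set side by side and were not tested.

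**Figure D1:**
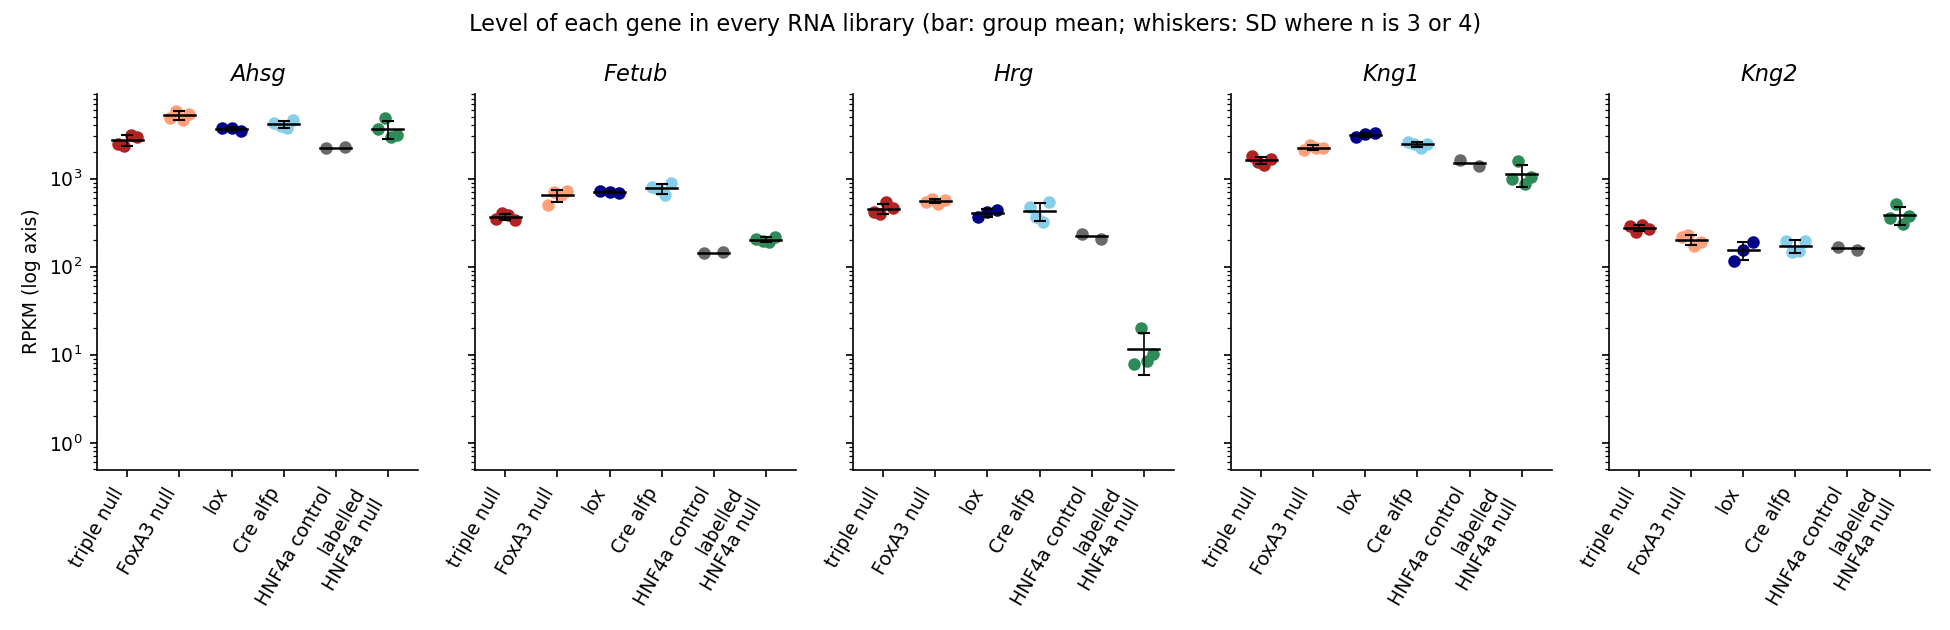
RPKM of each gene (log axis) in every library of the 6 groups, with points for libraries, a bar for the group mean and whiskers for the SD where n is 3 or 4. Hrg drops to between 7.87 and 20.3 in the libraries labelled HNF4a null, while the other 4 genes lie at or above 117.2 RPKM in every library.

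Hrg averaged 553.3 ± 31.3 RPKM in FoxA3 null, 455.5 ± 62.4 in the triple null, 425.0 ± 98.6 in Cre alfp, 409.3 ± 39.3 in lox and 220.6 ± 21.0 in HNF4a control. It then stood at 11.7 ± 5.82 in the libraries labelled HNF4a null. The 4 hepatocyte groups overlapped from neighbour to neighbour in this order, and the libraries labelled HNF4a null lay below all others. Kng1 was the second most abundant of the family in every group, from 3126.9 ± 178.1 RPKM in lox through Cre alfp (2435.3 ± 147.1), FoxA3 null (2238.9 ± 135.5), the triple null (1615.0 ± 156.7) and HNF4a control (1497.3 ± 154.1) to 1118.4 ± 317.2 in the libraries labelled HNF4a null. Libraries did not overlap between lox and Cre alfp or between FoxA3 null and the triple null, and did overlap at the other steps. Kng2 had another order, with 385.3 ± 87.9 RPKM in the libraries labelled HNF4a null, 275.1 ± 22.0 for the triple null, 201.2 ± 26.4 for FoxA3 null, 172.3 ± 29.0 in Cre alfp, 162.0 ± 8.24 in HNF4a control and 154.0 ± 35.6 in lox. The top 2 groups were separated from each other and from the rest, and the other 4 overlapped from neighbour to neighbour.

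The 5 genes lie next to each other on chromosome 16, in the order Ahsg, Fetub, Hrg, Kng2 and Kng1, with no other protein-coding gene between them in the gene table used. RefSeq promoter sequences were matched for 4 of the 5, not for Kng1. The 250 bases before the start are shown, 5′ to 3′ on the gene's strand in build GRCm38.p6, for Ahsg and Hrg, genes of the cluster with differences of opposite sign in liver, and for Kng2, whose highest levels were in the triple null and in the libraries labelled HNF4a null. Capitals mark matches to the motifs searched, which were TGTTTAC and TATTTAC for FoxA, CAAAGTC for HNF4, GTTAAT for HNF1 and TTGCNNAA for C/EBP, on both strands.
Ahsg, plus strand, chr16:22891765-22892014: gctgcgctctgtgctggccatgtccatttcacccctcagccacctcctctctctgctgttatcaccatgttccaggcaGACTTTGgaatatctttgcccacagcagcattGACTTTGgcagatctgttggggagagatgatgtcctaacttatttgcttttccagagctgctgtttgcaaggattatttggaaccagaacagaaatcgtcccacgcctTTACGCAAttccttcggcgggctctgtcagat
Hrg, plus strand, chr16:22950822-22951071: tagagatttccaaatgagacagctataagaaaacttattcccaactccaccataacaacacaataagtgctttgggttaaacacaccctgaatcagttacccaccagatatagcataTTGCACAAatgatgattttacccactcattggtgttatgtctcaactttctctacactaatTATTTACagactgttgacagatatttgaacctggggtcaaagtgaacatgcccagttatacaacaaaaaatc
Kng2, minus strand, chr16:23029102-23029351: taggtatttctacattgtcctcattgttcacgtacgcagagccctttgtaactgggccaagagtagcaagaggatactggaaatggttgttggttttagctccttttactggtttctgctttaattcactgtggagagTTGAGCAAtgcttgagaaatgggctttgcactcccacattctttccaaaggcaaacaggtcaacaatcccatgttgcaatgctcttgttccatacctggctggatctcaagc

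In the Ahsg window the HNF4 letters occur at 172 and at 140 bases before the start, both on the opposite strand as GACTTTG, and a C/EBP match begins 32 bases before it. The Hrg window holds TATTTAC at 72 bases and a C/EBP match at 133 bases, and the Kng2 window a C/EBP match at 112 bases. Fetub has a pair of annotated starts. None of the letters lies before the first, and TGTTTAC lies 236 bases before the second. GTTAAT was in none of the windows, and no 2 matches overlap. Over all 32851 promoter windows of this length in the table, TGTTTAC was in 3.17%, TATTTAC in 2.73%, CAAAGTC in 3.84%, GTTAAT in 6.43% and TTGCNNAA in 9.56%. These are matches of letters only, and no binding data were joined to them.

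The first comparison, triple null against FoxA3 null, asks what loss of Foxa1 and Foxa2 changes where FoxA3 is absent. Fetuin-A and fetuin-B transcripts and Kng1 fell, Kng2 rose, and Hrg did not pass the test. By adjusted p, 4 of the 5 genes passed, where 29.7% of all genes did, and none was called, where 8.11% were. At an unadjusted p under 0.05 the count was also 4. Libraries of the groups did not overlap for 4 of the 5 genes, where 27.9% of all genes showed no overlap. The median difference over all genes was 0.05.

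For the fetuins, Ahsg read 2457.5, 2310.4, 3113.8 and 2938.6 RPKM in the triple null libraries and 4867.8, 5901.5, 4595.6 and 5417.1 in FoxA3 null. All 4 triple null libraries were below all 4 controls, and the mean was 1.92-fold lower. The difference was -0.95 (SE 0.12, limma adjusted p = 5.52e-05). Fetub read 346.3, 401.3, 383.7 and 338.9 RPKM against 493.9, 710.0, 651.3 and 722.6. Again the groups did not overlap, and the lowest control, FoxA3 null replicate 1, was the nearest to the triple null. Fetub fell by 0.80 (SE 0.13, limma adjusted p = 0.000413), a mean 1.75-fold lower.

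Hrg read 417.1, 399.9, 539.3 and 465.8 RPKM for the triple null and 537.6, 589.8, 518.9 and 566.8 for FoxA3 null. Only triple null replicate 3 reached into the control range. The difference of -0.29 (SE 0.15) did not pass (limma adjusted p = 0.168), while the authors' deposited table lists Hrg at -0.34 with an adjusted p of 0.0066.

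Of the kininogens, Kng1 read 1803.9, 1550.5, 1438.5 and 1666.8 RPKM for the triple null and 2110.0, 2429.2, 2221.0 and 2195.5 for FoxA3 null. Every triple null library was lower, by 0.47 on the log2 scale in the fit (difference -0.47, SE 0.10, limma adjusted p = 0.00226), a mean 1.39-fold lower. Kng2 went the other way, reading 286.2, 248.2, 298.5 and 267.4 RPKM against 214.0, 230.4, 170.5 and 190.0. All 4 triple null libraries were above all 4 controls, by 0.46 (SE 0.16, limma adjusted p = 0.0415), a mean 1.37-fold higher. The rise of Kng2 is close to the threshold and no longer passed under median scaling (0.40, adjusted p = 0.0682), without a filter on low values (0.46, adjusted p = 0.078), with the replicate number as a block (0.46, adjusted p = 0.078) or without any 1 of 7 libraries, which were triple null replicates 1, 3 and 4, FoxA3 null replicates 1, 3 and 4 and lox replicate 2 (0.38 to 0.52 over all 15 such fits). Quantile normalization took the fall of Kng1 to -0.41 with an adjusted p of 0.051, and that of Ahsg to -1.08, which was then called. The authors' deposited table of the same comparison lists -0.99 for Ahsg, -0.94 for Fetub, -0.73 for Kng1 and 0.41 for Kng2, each with an adjusted p under 0.05, which 42.7% of the genes in that table had.

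**Figure D2:**
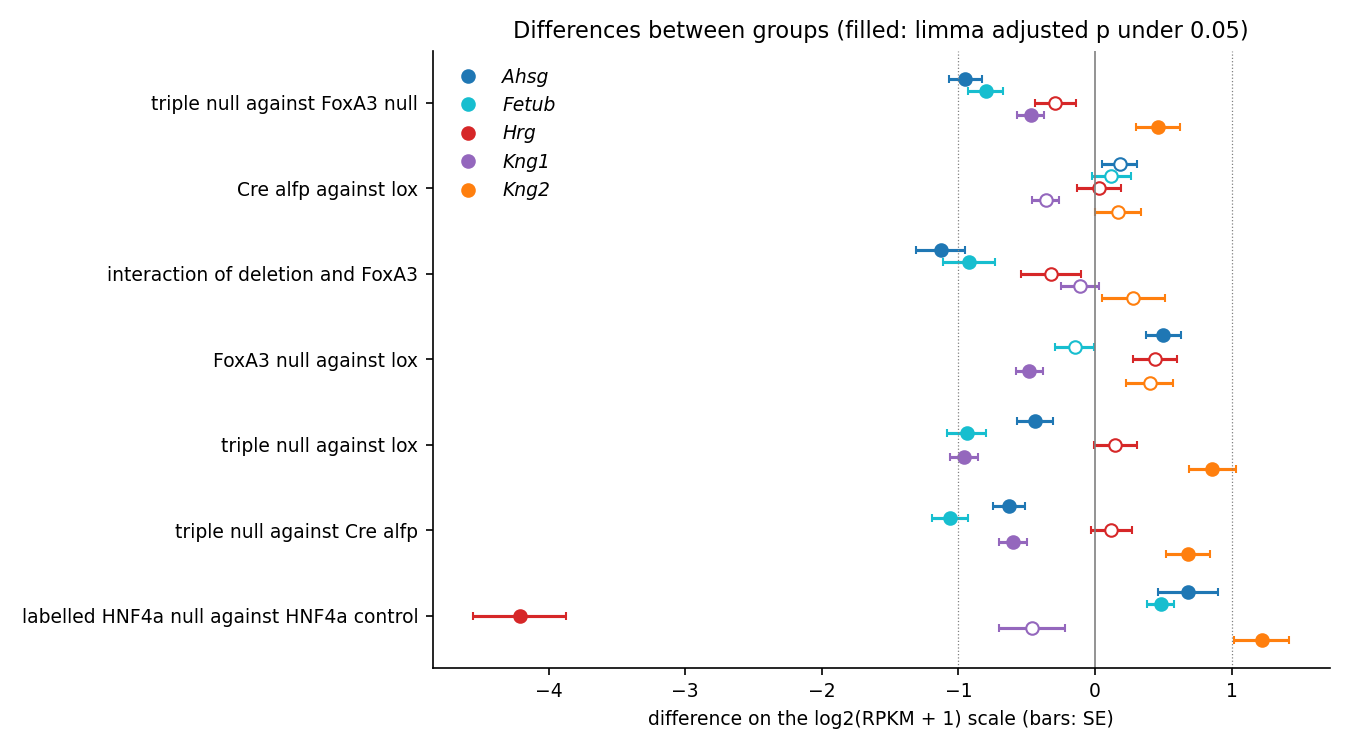
Difference between groups on the log2(RPKM + 1) scale for each gene and comparison, with bars for the SE, filled points where the limma adjusted p was under 0.05 and dotted lines at -1 and 1. Kng2 lies to the right of Kng1 in every comparison, and Hrg lies at -4.21 in liver against 0.68 for Ahsg.

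Deletion of the same genes with FoxA3 present, Cre alfp against lox, moved none of the 5 past the threshold in limma, where 5.46% of all genes passed and 2.38% were called. At an unadjusted p under 0.05 the count was 1, for Kng1. Kng1 read 2578.1, 2483.1, 2230.2 and 2449.9 RPKM in Cre alfp and 2930.7, 3171.6 and 3278.3 in lox. The groups did not overlap, as for 19.9% of all genes, and the difference was -0.36 (SE 0.10, limma adjusted p = 0.063). Kng1 was at -0.18 under quantile normalization (adjusted p = 0.599) and at -0.36 with the replicate number as a block (0.118) or without a filter on low values (0.138). Without triple null replicate 3, which shares the fit's estimate of the spread, it passed at an adjusted p of 0.0495.

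The other 4 genes overlapped between Cre alfp and lox. Ahsg ranged from 3722.5 to 4633.5 RPKM in Cre alfp and from 3453.1 to 3793.4 in lox, a difference of 0.18 (SE 0.13, limma adjusted p = 0.527). For Fetub the ranges were 651.0 to 893.7 and 691.4 to 718.4, with a difference of 0.12 (SE 0.14, limma adjusted p = 0.719). The values for Hrg spread from 323.8 to 540.4 against 366.6 to 444.1, and for Kng2 from 145.8 to 197.8 against 117.2 to 188.4, with limma adjusted p of 0.955 and 0.66. Foxa1 and Foxa2 were at 1.24 and 1.09 RPKM in Cre alfp against 6.72 and 12.5 in lox, so the targeted genes were lower in this pair as well.

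Whether the effect of the deletion differs with FoxA3 was tested by the interaction, the first difference minus the second. Both fetuin genes passed, 2 of 5 where 14.4% of all genes passed, and Ahsg was called, where 6.82% were. The interaction was -1.13 for Ahsg (SE 0.18, limma adjusted p = 0.000955) and -0.92 for Fetub (SE 0.19, limma adjusted p = 0.0064). For Hrg it was -0.32 (SE 0.22, adjusted p = 0.363), for Kng1 -0.11 (SE 0.14, adjusted p = 0.636) and for Kng2 0.28 (SE 0.23, adjusted p = 0.44). For Kng1 the differences were -0.47 without FoxA3 and -0.36 with it, and under quantile normalization -0.41 and -0.18. The interaction did not pass under either scaling (-0.23, adjusted p = 0.499 under quantile normalization). The pairs also differ in how Cre was delivered, by AAV8 in the triple null and as Cre alfp in the other, and this cannot be told apart from the FoxA3 genotype.

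The remaining hepatocyte comparisons set groups with and without FoxA3 against each other. They share libraries with those above and cross a division of the data, since for 1277 of the 11500 genes (11.1%) the 8 libraries without FoxA3 lay apart from the 7 libraries with it. None of the 5 members was among them. As the groups were read here, those without and with FoxA3 also differ in virus or in the way of deletion. This cannot be told apart from the FoxA3 genotype. In FoxA3 null against lox, Ahsg rose by 0.50 (SE 0.13, limma adjusted p = 0.0115) and Kng1 fell by 0.48 (SE 0.10, adjusted p = 0.00445). That is 2 of 5 genes, where 34.8% of all genes passed, and none was called, where 7.19% were. At an unadjusted p under 0.05 the count was 4. Fetub (-0.15, adjusted p = 0.438), Hrg (0.44, adjusted p = 0.0514) and Kng2 (0.40, adjusted p = 0.0789) did not pass. Hrg did pass with a minimum RPKM of 5 (adjusted p = 0.0466), under quantile normalization (0.0289), in a fit of 2 groups only (0.0322) and without triple null replicate 3 (0.0434), Cre alfp replicate 3 (0.0363) or Cre alfp replicate 4 (0.031). Kng2 passed without FoxA3 null replicate 3 (0.48, adjusted p = 0.0469) or lox replicate 3 (0.56, adjusted p = 0.0281). Under quantile normalization Ahsg was at 1.04 (adjusted p = 0.000563) and so was called, Kng1 was at -0.15 (adjusted p = 0.491), and without a filter on low values Ahsg was at 0.50 with an adjusted p of 0.0636.

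In the triple null against lox, where all FoxA genes are compared with none deleted, 4 of 5 genes passed and 42.5% of all genes did. Kng1 was 1.94-fold lower in the triple null (-0.96, SE 0.10, limma adjusted p = 8.4e-06, and -0.55 with an adjusted p of 0.013 under quantile normalization), and Fetub 1.92-fold lower (-0.94, SE 0.14, adjusted p = 0.000133). Ahsg fell by 0.44 (SE 0.13, adjusted p = 0.0153), Kng2 rose by 0.86 (SE 0.17, adjusted p = 0.00123), and Hrg was at 0.15 (SE 0.16, adjusted p = 0.488). None was called, where 13.5% were, and the count at an unadjusted p under 0.05 was 4. Relative to the median of all genes, which was 0.13, the values were -1.09 for Kng1, -1.07 for Fetub and 0.72 for Kng2. Ahsg no longer passed under quantile normalization (-0.04, adjusted p = 0.864), without a filter on low values (adjusted p = 0.0801), or without lox replicate 1 (0.0565) or lox replicate 2 (0.0506).

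Cre alfp differs from the triple null in FoxA3, in how Cre was delivered and in the RNA of the targeted genes. Foxa1 was at 3.28 RPKM in the triple null against 1.24 in Cre alfp (0.94, limma adjusted p = 0.000403). Foxa2 was at 0.366 against 1.09 (-0.62, adjusted p = 0.0519). The part of each in the differences was not tested. Against Cre alfp, the triple null was lower for Fetub by 1.06 (difference -1.06, SE 0.13, limma adjusted p = 2.9e-05), the only one of the 5 to be called, where 10.3% of all genes were. Ahsg (-0.63, SE 0.12, adjusted p = 0.00116) and Kng1 (-0.60, SE 0.10, adjusted p = 0.000311) also fell and Kng2 rose (0.68, SE 0.16, adjusted p = 0.00342), so that 4 of 5 passed where 41.2% of all genes did. Hrg was at 0.12 (SE 0.15, adjusted p = 0.555), and under median scaling its value turned to -0.05 here and to -0.03 against lox. Without Cre alfp replicate 4 no member was called, and quantile normalization took Ahsg to -0.15 (adjusted p = 0.451) and Kng1 to -0.38 (adjusted p = 0.0552). In the authors' deposited tables Hrg did not pass against undeleted controls (-0.06, adjusted p = 0.75) or against Cre alfp (-0.10, adjusted p = 0.676), while Kng2 was listed at 0.67 and 0.51. Of all genes in these tables, 51.6% and 50.9% passed.

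Because both kininogens were measured in each library, a scaling factor applied to a whole library does not change their ratio. Quantile normalization can change it, and the ratio was taken without it. The ratio of Kng1 to Kng2 RPKM was 6.3, 6.25, 4.82 and 6.23 for the triple null and 9.86, 10.5, 13.0 and 11.6 for FoxA3 null. Every triple null library was below every control, and the log2 ratio differed by -0.93 (SE 0.128, two-sided exact permutation p = 0.0286, the smallest that 4 against 4 allows, 0.0571 after adjustment over 2 tests). In Cre alfp the ratio was 13.1, 17.0, 15.0 and 12.4, and in lox 25.0, 20.3 and 17.4. These groups did not overlap either, with a log2 difference of -0.53 (SE 0.183, two-sided exact permutation p = 0.0571, the smallest possible for 4 against 3). With so few libraries neither test could reach an adjusted p under 0.05, so they cannot decide at that threshold. Whether these differences of -0.93 and -0.53 differ from each other was not tested.

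In liver the ratio was 9.57 and 8.89 in HNF4a control and 2.8, 3.1, 2.83 and 2.79 in the libraries labelled HNF4a null, a log2 difference of -1.68 (SE 0.0646) that was not tested, since the exact permutation test used for the ratio cannot reach a p of 0.05 with 2 libraries against 4. Of the kininogen sum, Kng2 thus made up 14.6% ± 1.71 (SD) for the triple null, 8.24% ± 0.899 for FoxA3 null, 4.66% ± 0.794 for lox, 6.59% ± 0.864 for Cre alfp, 9.78% ± 0.461 in HNF4a control and 25.8% ± 0.96 in the libraries labelled HNF4a null. The sum of both genes was 1890.0 ± 156.8 RPKM for the triple null and 2440.1 ± 149.5 for FoxA3 null, without overlap. It was 3280.8 ± 213.3 in lox and 2607.6 ± 165.8 in Cre alfp, also without overlap. In HNF4a control the sum was 1659.3 ± 162.4 RPKM and in the libraries labelled HNF4a null 1503.7 ± 404.7, and there the ranges overlapped.

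**Figure D3:**
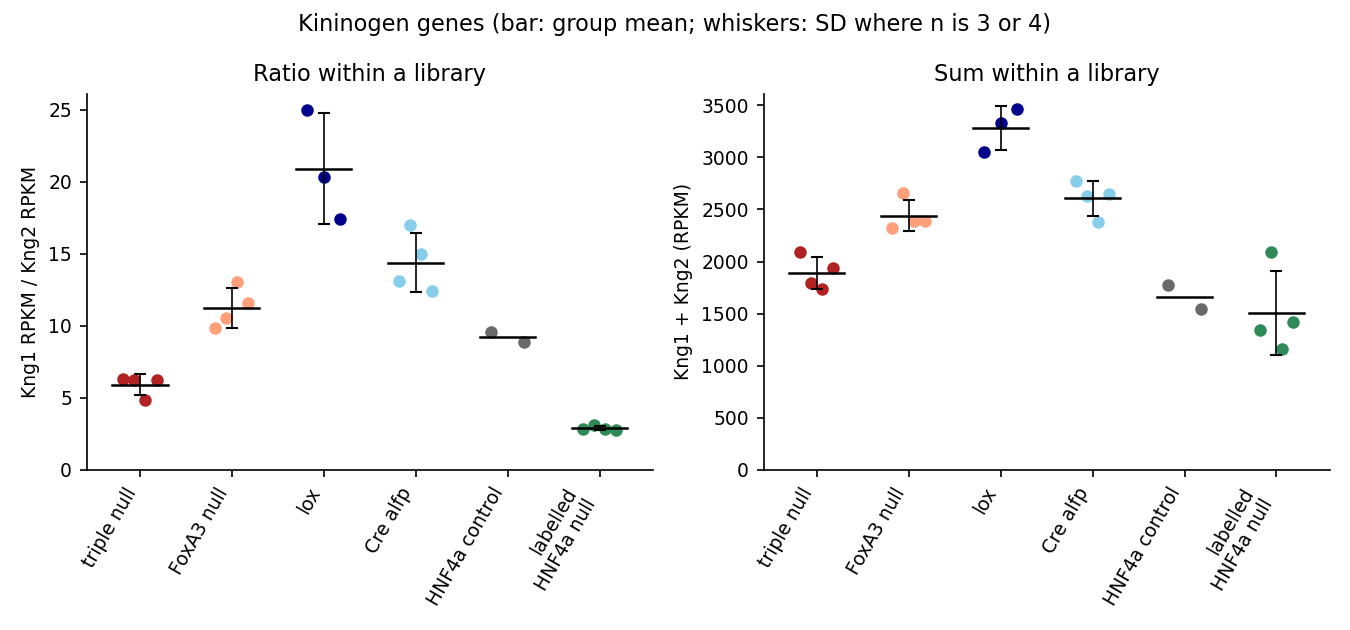
Ratio of Kng1 to Kng2 RPKM (left) and their sum in RPKM (right) in every library, with a bar for the group mean and whiskers for the SD where n is 3 or 4. The ratio runs from 2.79 in a library labelled HNF4a null to 25.0 in a lox library.

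The liver comparison asks what changes in the libraries labelled HNF4a null against HNF4a control. Hrg fell 18.8-fold, Ahsg, Fetub and Kng2 rose, and Kng1 did not pass the test. By adjusted p 4 of 5 genes passed, where 52.8% of all genes did, and 2 were called, where 14.5% were. Hrg was called lower, as were 5.95% of all genes, and Kng2 higher, as were 8.58%. Since the median difference of all genes was 0.34, values relative to that median are given as well.

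Hrg read 235.5 and 205.7 RPKM in HNF4a control and 7.87, 20.3, 8.56 and 10.1 in the libraries labelled HNF4a null. The groups were far apart, and the highest of the low libraries carries barcode GGCTAC. The mean was 18.8-fold lower, a difference of -4.21 (SE 0.34, limma adjusted p = 0.000186) that became -4.55 once the median was taken off. The authors' deposited table lists it at -4.65, with an adjusted p of 1.2e-21.

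Kng2 read 167.8 and 156.1 RPKM in HNF4a control and 354.9, 509.0, 302.8 and 374.4 in the libraries labelled HNF4a null. All 4 were above both controls, with a mean 2.38-fold higher (1.22, SE 0.20, limma adjusted p = 0.00298). Relative to the median of all genes the difference was 0.88, and with median scaling it was 0.82 with an adjusted p of 0.0144, still passing but no longer called. Kng1 read 1606.3 and 1388.4 RPKM against 992.1, 1579.4, 857.9 and 1044.3. Only library GGCTAC lay in the control range, and the difference of -0.46 (SE 0.24) did not pass (limma adjusted p = 0.154). Without GGCTAC it was -0.63 with an adjusted p of 0.0136, and with median scaling -0.86 with an adjusted p of 0.0268. The authors' deposited table lists Kng1 at -0.92 (adjusted p = 2.01e-06) and Kng2 at 0.83 (adjusted p = 2.28e-06), and 46.3% of its genes passed.

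Ahsg read 2201.8 and 2271.5 RPKM in HNF4a control and 3635.9, 4844.4, 2962.7 and 3149.2 in the libraries labelled HNF4a null. The groups did not overlap, as was so for 67.0% of all genes, and the difference was 0.68 (SE 0.22, limma adjusted p = 0.0351). Fetub read 142.1 and 146.6 RPKM against 208.2, 193.9, 188.6 and 216.1, a difference of 0.48 (SE 0.10, limma adjusted p = 0.00642). Relative to the median of all genes, which was itself 0.34, the values were 0.34 for Ahsg and 0.14 for Fetub. Neither passed under median scaling (adjusted p = 0.323 for Ahsg and 0.514 for Fetub), nor in the authors' deposited table (0.29 with adjusted p = 0.177 and 0.08 with adjusted p = 0.553). Ahsg also missed the threshold without a filter on low values (limma adjusted p = 0.15) or without library GAGTGGA (limma adjusted p = 0.0722). Leaving out either control leaves 1 library in that group, so only differences are given for those fits. Without control ACTGATA they were 0.66 for Ahsg and 0.46 for Fetub, and without control ATTCCTA 0.70 for Ahsg.

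The genes around the cluster were read in the same comparisons, with 5 protein-coding neighbours on each side. Of these 10, Etv5, Tbccd1, Dnajb11, Eif4a2, Rfc4 and St6gal1 passed the filter on low values, and Dgkg, Crygs, Adipoq and Rtp1 did not. In the triple null against FoxA3 null, 3 of these 6 rose and none fell, where 29.7% of all genes passed. At the edges of the cluster, Dnajb11, next to Ahsg and an endoplasmic reticulum chaperone, was at 0.48 (SE 0.18, limma adjusted p = 0.0599), and Eif4a2, next to Kng1 and a translation factor, was at -0.22 (SE 0.15, adjusted p = 0.296). Etv5, an ETS family transcription factor, rose by 0.64, Rfc4, a replication factor subunit, by 0.65 and Tbccd1 by 0.45. In liver 3 of the 6 rose, with Rfc4 at 1.24, Eif4a2 at 0.61 and St6gal1, a sialyltransferase, at 0.61, and none fell, where 52.8% of all genes passed and the median difference was 0.34. The -4.21 of Hrg thus lay between Fetub at 0.48 and Kng2 at 1.22.

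**Figure D4:**
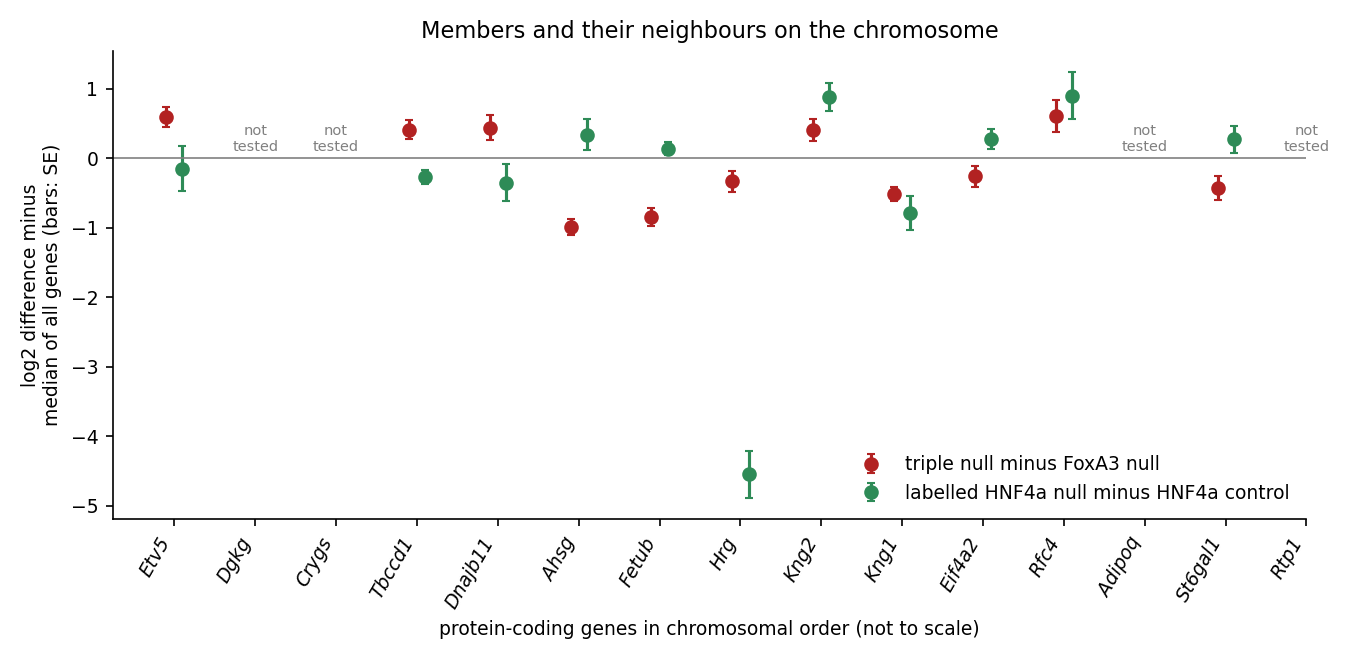
Differences of the 5 genes and of the 6 tested among their 10 neighbours, in chromosomal order (the other 4 are marked as not tested), relative to the median of all genes on the log2(RPKM + 1) scale, with bars for the SE, for the triple null and for the libraries labelled HNF4a null. Hrg at -4.55 in liver lies between neighbours at or above 0.14.

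The authors' deposited tables also compare developmental stages. In the deposited table of hepatoblasts, the fetal precursors of hepatocytes, against adult hepatocytes, all 5 were listed lower, at -4.62 for Ahsg, -5.80 for Fetub, -4.87 for Hrg, -5.28 for Kng1 and -5.61 for Kng2. Of all genes listed there, 37.9% were lower by adjusted p. The authors' deposited table of the triple null against hepatoblasts lists the 5 genes higher in the triple null, at 3.97 for Ahsg, 4.71 for Fetub, 4.82 for Hrg, 4.46 for Kng1 and 6.30 for Kng2, where 37.6% of genes were higher. Both tables share the hepatoblast libraries. In the authors' deposited table of newborn against adult hepatocytes the family split, with Ahsg higher by 2.75 and Kng1 by 0.70, Fetub at -0.99, Hrg at -0.37 (adjusted p = 0.0141) and Kng2 at 0.31 (adjusted p = 0.238). Of all genes listed there, 31.6% were higher and 31.7% lower, and which adult libraries served as reference is not given in the sources used here.

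**Figure D5:**
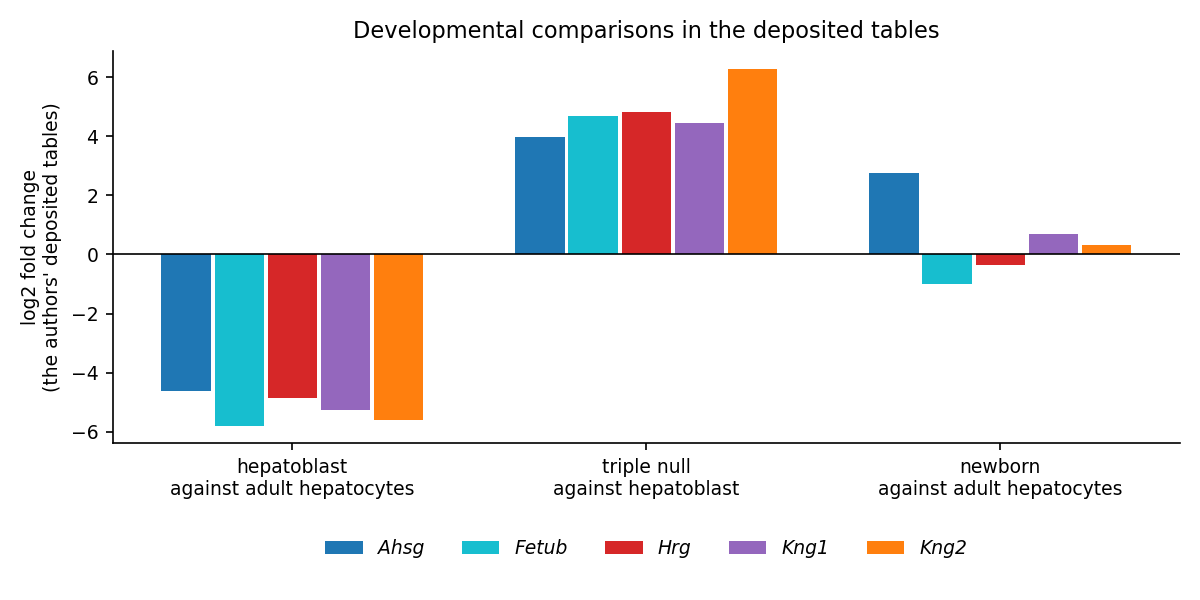
Log2 fold changes of the 5 genes in the authors' deposited tables of hepatoblasts against adult hepatocytes, the triple null against hepatoblasts, and newborn against adult hepatocytes. All 5 bars lie at -4.62 or below in the first, at 3.97 or above in the second, and on both sides of 0 in the third, where Ahsg reaches 2.75.

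The proteins that act on kininogens were taken as a list of 17 genes of the kallikrein-kinin and contact system, of which 9 passed the filter in hepatocytes. In the triple null against FoxA3 null, 7 of the 9 fell and none rose, with a median difference of -0.65 beside 0.05 over all genes, of which 29.7% passed. F11, coagulation factor XI, which circulates bound to kininogen, averaged 0.831 RPKM against 30.7 (-4.11), and Plg, plasminogen, a ligand of histidine-rich glycoprotein, 122.7 against 838.8 (-2.80). Klkb1, plasma prekallikrein, the enzyme precursor that releases bradykinin, read 23.9, 19.2, 25.2 and 21.6 RPKM against 100.1, 65.1, 51.8 and 54.6. All triple null libraries were lower (-1.51, SE 0.18, limma adjusted p = 2.23e-05), beside -0.47 for Kng1, the gene of its substrate. Cpb2, a carboxypeptidase that removes the last residue of kinins, was at -1.23.

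In liver 7 of 10 tested genes of that list fell and none rose, with a median of -0.88 beside 0.34 over all genes, of which 52.8% passed. F12, coagulation factor XII, which starts the contact system, read 197.6 and 191.5 RPKM in HNF4a control and 0.949, 0.963, 0.791 and 1.77 in the libraries labelled HNF4a null (-6.55, SE 0.18, limma adjusted p = 1.92e-06). In hepatocytes F12 stayed between 322.5 and 639.0 RPKM outside the triple null and between 385.2 and 526.0 in it. Cpn2, a subunit of the kinin-cleaving carboxypeptidase N, was at -2.99, F11 at -2.56 and Serping1, the C1 inhibitor that blocks kallikrein and factor XII, at -1.08.

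Of 16 other cystatin superfamily genes, 3 passed the filter in hepatocytes and 3 in liver. In the triple null against FoxA3 null, 1 of these rose and 1 fell, where 29.7% of all genes passed and 8.11% were called. In liver 1 also rose and 1 fell, where 52.8% passed and 14.5% were called. Cstb averaged 101.1 RPKM for the triple null and 65.9 for FoxA3 null, without overlap. Its liver means were 57.2 for the group labelled HNF4a null and 32.6 for its controls, again without overlap. Spp2, a secreted phosphoprotein with a cystatin-like domain, was the one that was called in both. It read 2.33, 1.4, 1.24 and 3.57 RPKM for the triple null and 76.2, 73.8, 87.5 and 95.9 for FoxA3 null (-4.80, SE 0.20, limma adjusted p = 4.33e-10). In liver it read 116.5 and 116.7 RPKM in HNF4a control and 3.39, 3.27, 3.6 and 4.18 in the libraries labelled HNF4a null (-4.68, SE 0.11, limma adjusted p = 8.78e-07). Beside these values, Hrg was at -0.29 in the first comparison and -4.21 in the second, and Ahsg at -0.95 and 0.68.

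Among 14 partners of fetuins and histidine-rich glycoprotein, 7 were tested in hepatocytes, where 1 rose and 3 fell in the triple null against FoxA3 null (median -0.35), beside 29.7% of all genes passing. Cd36, a scavenger and thrombospondin receptor, was at 2.90, Asgr2, a subunit of the hepatic receptor for desialylated plasma glycoproteins, at -2.55 and Serpinc1, antithrombin, at -1.33. In liver 10 were tested, with 1 higher and 4 lower (median 0.00 beside 0.34 over all genes). That share of 5 in 10 is near the 52.8% of all genes that passed. Asgr1 was at -4.89 and Asgr2 at -3.90. Fetuin-A is also known as a protein that drops in the acute phase response, and of 12 acute phase genes 8 rose and 3 fell in the triple null against FoxA3 null, with a median of 1.34, where 29.7% of all genes passed. Lcn2 was at 5.21 and Saa1 at 3.60, while Hp was at -2.70 (398.5 against 2403.9 RPKM) and Fgb at -1.05, and the part of these genes in the difference of Ahsg was not tested. In liver 4 of the 12 rose and 4 fell, where 52.8% of all genes passed.

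The genes most like each member over the 15 hepatocyte libraries were read by Pearson's r of log2(RPKM + 1), as a description without a test, since the libraries share groups and scaling. Ahsg was most like Impa2 (r = 0.951), Agtr1a (0.942) and Pzp (0.938), the last a secreted protease inhibitor with 281.2 RPKM for the triple null and 1061.7 for FoxA3 null. Fetub was most like Dna2 (0.945), Csrp3 (0.943) and Vwce (0.935). For Hrg these were Abcg8 (0.935), a sterol transporter subunit, Glyat (0.904), a glycine conjugating enzyme, and Decr2 (0.899), a peroxisomal enzyme of fatty acid oxidation. In liver Glyat was at 184.5 RPKM in HNF4a control and 0.892 in the libraries labelled HNF4a null, while Abcg8 was at 15.0 and 14.2. Kng1 was most like Gpld1 (0.945), Zap70 (0.93) and Insc (0.923), and Kng2 most like 2310022B05Rik (0.942), Gm12734 (0.936) and Foxo3 (0.936). No gene was named for 2 members, and 8 of the 15, among them Impa2, Dna2, Zap70 and Gm12734, had group means under 20 RPKM throughout.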

How the data were processed

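The authors deposited 1 matrix of RPKM values and 7 comparison tables; per the file headers, each table gives a log2 fold change and p-value for the genes it lists. The submitters' processing notes name SAMtools, Cufflinks 2.2.1, DESeq2 and build mm9, in no stated role, and the aligner and gene annotation are not given in the sources used here. Of the matrix columns, 21 matched a sample or group by name and 9 matched none and were not used. The columns taken as lox carry the gene names and a number without the word lox, and the liver columns are told apart by barcode, not by number. The sign of the authors' deposited table against undeleted controls was turned, and the unadjusted p-value in their deposited table against Cre alfp was adjusted by the Benjamini-Hochberg method. The deposited HNF4a peak list, with a score per peak from the authors, was not used, since the build in the notes differs from that of the gene table (GRCm38.p6), which served for names and gene order only.

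Group differences come from limma 3.58.1 under R 4.3.3, with lmFit and a trended eBayes on log2(RPKM + 1), on which low genes show too small a change. A model held the 15 hepatocyte libraries and another the 6 liver libraries, neither with covariates. A gene entered if 3 hepatocyte or 2 liver libraries reached an RPKM of 1. Ratios were tested by exact permutation in scipy 1.17.1. The steps were tested on simulated data. Members, lists and motifs were chosen with earlier results of these data known. Genes named are the 5 members, Foxa1, Foxa2, Foxa3 and Hnf4a, 5 protein-coding neighbours on each side, the 3 genes most correlated with each member, and up to 4 called genes each way from each list. The alternatives tried were other pseudocounts (0.1 and 5), filters, scalings, variance models, a fit of 2 groups only, no minimum difference, the replicate block and each library left out. No read counts were used, so absolute depth and counting error are unknown. Chromatin immunoprecipitation and ATAC-seq samples were not analysed here.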

Additional observations from a re-analysis of the deposited data

Results flagged for a closer look

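In groups of 4, a library was set apart where its gap to the nearest other library, as a share of the group's range, passed Dixon's 95% limit, which chance gives in about 1 in 20 groups. Of 156 groups tested over 38 genes and the kininogen ratio, 13 held such a library. For the members, the ratio of Kng1 to Kng2 was low in triple null replicate 3 (4.82) and high in the library labelled HNF4a null with barcode GGCTAC (3.1). Both lie away from their group but on the same side of the control libraries as the rest. Among neighbours, Dnajb11 was low (80.0 RPKM) and Eif4a2 high (111.1 RPKM) in triple null replicate 3, Eif4a2 was high in Cre alfp replicate 4 (102.7 RPKM), and Etv5 was high in library TAGCTTA (2.5 RPKM). Foxa2 was high in FoxA3 null replicate 3 (20.6 RPKM). Among the listed genes, triple null replicate 3 was high for the acute phase gene Saa2 (2325.3 RPKM) and for Cd36 (49.0 RPKM). Library GGCTAC was high for the acute phase genes Apcs (41.1 RPKM), Crp (47.1 RPKM) and Lcn2 (84.0 RPKM), and library GAGTGGA was apart for Enpp1 (2.22 RPKM). Triple null replicate 3 and library GGCTAC account for 9 of the 13.

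The interaction of the deletion and FoxA3 in limma passed for Ahsg (-1.13) and Fetub (-0.92) and for the neighbours Dnajb11 (1.72) and Tbccd1 (0.74). Of all genes 14.4% passed, and the delivery of Cre cannot be told apart from the FoxA3 genotype here. For Dnajb11 the deletion differences were 0.48 without FoxA3 and -1.24 with it.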

How the results depend on the processing

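Of 300 differences of members under alternative settings, 280 kept their direction and their side of the threshold, and of 480 fits that left out 1 library, 455 did. With no minimum difference, members called were 4 for the triple null against FoxA3 null, against lox and against Cre alfp and in liver, and 2 for the interaction and for FoxA3 null against lox. All genes called then numbered 3413 for the triple null against FoxA3 null, 628 for Cre alfp against lox, 1658 for the interaction, 4001 for FoxA3 null against lox, 4891 and 4743 for the triple null against lox and Cre alfp, and 6569 in liver. With a pseudocount of 5 these were 505, 141, 441, 354, 823, 598 and 791 in the same order, since it shrinks the differences of low genes. With a pseudocount of 0.1, 1303 genes were called for FoxA3 null against lox, and a fit of 2 groups alone called 182 for Cre alfp against lox. Quantile normalization gave 1 called member for the triple null and 1 for lox, each against FoxA3 null and each time Ahsg, and median scaling gave 2 for the triple null against lox and 1 in liver. For single members, quantile normalization took Kng1 in the triple null against FoxA3 null to -0.41, median scaling took Kng2 there to 0.40, and Kng2 was at 0.46 without a filter. Median scaling turned Hrg in the triple null to -0.03 against lox and -0.05 against Cre alfp. In liver, Ahsg was at 0.68 without a filter and 0.28 under median scaling, which gave 0.08 for Fetub and -0.86 for Kng1. The causes of these changes were not tested.

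The replicate number as a block left Kng2 in the triple null against FoxA3 null at 0.46 (limma adjusted p = 0.078) and turned Hrg in Cre alfp against lox to -0.02 (adjusted p = 0.974). The numbers were not taken to pair libraries, as deviations of same-numbered libraries correlated at -0.126, -0.0437, -0.36 and 0.0177 for the triple null and FoxA3 null, and at -0.0335, 0.116 and -0.203 for Cre alfp and lox, across genes. With each library left out in turn, called members ranged over 0 to 1 for the triple null against FoxA3 null, lox and Cre alfp and 1 to 2 for the interaction, and all genes called over 177 to 284 for Cre alfp against lox, where the lowest count is without lox replicate 1. Kng2 in the triple null against FoxA3 null ranged from 0.38 to 0.52. In Cre alfp against lox, Hrg ranged from -0.10 to 0.15, Kng1 from -0.41 to -0.32 and Kng2 from -0.01 to 0.33, and Hrg in the triple null against Cre alfp from -0.0015 to 0.24. In liver, Ahsg ranged from 0.53 to 0.77, Fetub from 0.44 to 0.51 and Kng1 from -0.63 to -0.34. Without library GAGTGGA, Ahsg was at 0.67 and no longer passed by adjusted p. Fits that left out a control library are read for the difference only, with Ahsg at 0.66 and 0.70. The kininogen log2 ratio in the triple null against FoxA3 null ranged from -0.99 to -0.84, with an exact permutation p of 0.0571 in each case, the smallest that 3 against 4 allows. Relative depth was 1 to 1.1 in liver, the lowest, and whether depth limits a result was not tested.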
